A study of Mus musculus with 2 samples.

Results

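The Rab GTPase genes of mouse bone marrow-derived macrophages were measured in LPS-stimulated cells of TKO and WT genotype. The members were all genes of the deposited table whose symbol is Rab followed by a number, with an optional letter and number after it, which gave 56 of 16218 genes. TKO cells carried mir-106a~363-/- and mir-106b~25-/- deletions and mir-17~92 flox/flox alleles together with Lyz2-Cre, and WT cells carried Lyz2-Cre alone. The strain given for both was C57BL/6J. Lyz2-Cre is a recombinase driven by a gene of the myeloid lineage, so mir-17~92 was deleted conditionally, whereas the other clusters were deleted in the germline. Marrow cells of both genotypes had grown for 5 days with 10% FBS and 10% L929 supernatant, which carries macrophage growth factor, before 10 ng/ml LPS was added for 3 h. LPS is a component of bacterial outer membranes that activates macrophages through Toll-like receptor 4.

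Polyadenylated RNA was sequenced in 1 library per genotype, with estimated counts that sum to 10836855 in TKO and 10764519 in WT. A difference between the genotypes therefore has no replicate check, and genotype, animal, culture and library cannot be told apart. Intervals given here are exact 95% intervals of the ratio of CPM, counts scaled to the library's total, and cover counting error only. Mir17hg, the host transcript of mir-17~92, had 16 counts in TKO and 16 in WT, and mature microRNAs are not measured in such libraries, so these data do not check the deletions. Of 15 macrophage markers, all passed a mean of 1 CPM. Called higher were 0, against 2.83% of all genes, and called lower 0, against 5.26%. Their summed CPM was 14982 in TKO and 13328 in WT, 1.12-fold higher in TKO (1.12 to 1.13). By the interval alone, 6 were higher and 4 lower, against 14.1% of all genes higher and 20.2% lower. Of 16 fibroblast and stromal markers, none was at 0. Of the 14 that passed, 11 were called lower in TKO, against 5.26% of all genes. Not called among the 14 were Pdgfrb, Thy1 and Pdgfra. Pdgfrb had 510 counts in TKO and 478 in WT, and Thy1 39 in TKO and 33 in WT. Pdgfra had 30 in TKO and 32 in WT. The summed CPM of the 16 markers was 228 in TKO and 559 in WT. Among markers of other blood and vessel cells, Itgax and Kdr were called higher in TKO, and S100a9 and Lck lower.

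Rab proteins are small GTPases that mark the membranes of the cell. In the GTP-bound form they recruit effectors that move, tether and fuse vesicles. Exchange factors load them with GTP, GTPase-activating proteins switch them off, and GDP dissociation inhibitors carry the prenylated, inactive form through the cytosol. In macrophages they direct the maturation of phagosomes, the delivery of receptors to the surface and the release of cytokines.

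The deleted clusters encode microRNAs of 4 seed families, and the seed, bases 2 to 8, pairs with sites in messenger RNAs. One mature sequence of each family follows, to show what a site in a Rab transcript must match, from RefSeq on GRCm38.p6, with the seed in capitals.
miR-17-5p: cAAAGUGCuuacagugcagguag
miR-18a-5p: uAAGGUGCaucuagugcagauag
miR-19a-3p: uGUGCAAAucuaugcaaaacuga
miR-92a-3p: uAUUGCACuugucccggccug
The miR-17 seed is shared by miR-20a-5p, miR-93-5p, miR-106a-5p, miR-106b-5p and miR-20b-5p, and the miR-92 seed by miR-25-3p and miR-363-3p. miR-18b-5p has the miR-18 seed and miR-19b-3p the miR-19 seed.

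The 5 sites below are stretches of 28 bases of the longest GENCODE M21 3' UTR of Rab10, Rab5b and Rab8b on GRCm38. They are shown because these abundant Rab genes differed in opposite directions while all carrying a match to the miR-17 seed. Capitals mark the 7 bases complementary to it, GCACTTT.
Rab10, chr12:3247734-3247761, minus strand: aggctacctttgttaaatctGCACTTTc
Rab5b, chr10:128679379-128679406, minus strand: ctcctgacagctccgtcatgGCACTTTt
Rab5b, chr10:128678586-128678613, minus strand: acaccatgcccctgcagtttGCACTTTa
Rab8b, chr9:66847379-66847406, minus strand: aatcttagactcttaactgaGCACTTTa
Rab8b, chr9:66845117-66845144, minus strand: gtattagtggttcagtggctGCACTTTa
They are all the miR-17 matches of these 3 genes in that window, and the second of Rab5b overlaps a miR-19 match. A match describes the letters only and is no measurement of binding.

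As a class, the Rab genes took nearly the same share of the transcriptome in both genotypes. They held 52063 counts in TKO and 51526 in WT, or 0.480% of all counts in TKO and 0.479% in WT. Their summed CPM differed 1.00-fold (0.992 to 1.02). Per length, as FPKM, the 5 genes highest in TKO, Rab7, Rab5c, Rab32, Rab10 and Rab1a, together made 43.8% of the summed Rab FPKM in TKO and 42.1% in WT. In WT, Rab8b also stood above Rab10 and Rab1a. In both libraries 27 members reached an FPKM of 10, and 16 were under 1. The plot of FPKM by member shows both libraries over this range.

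**Figure D1:**
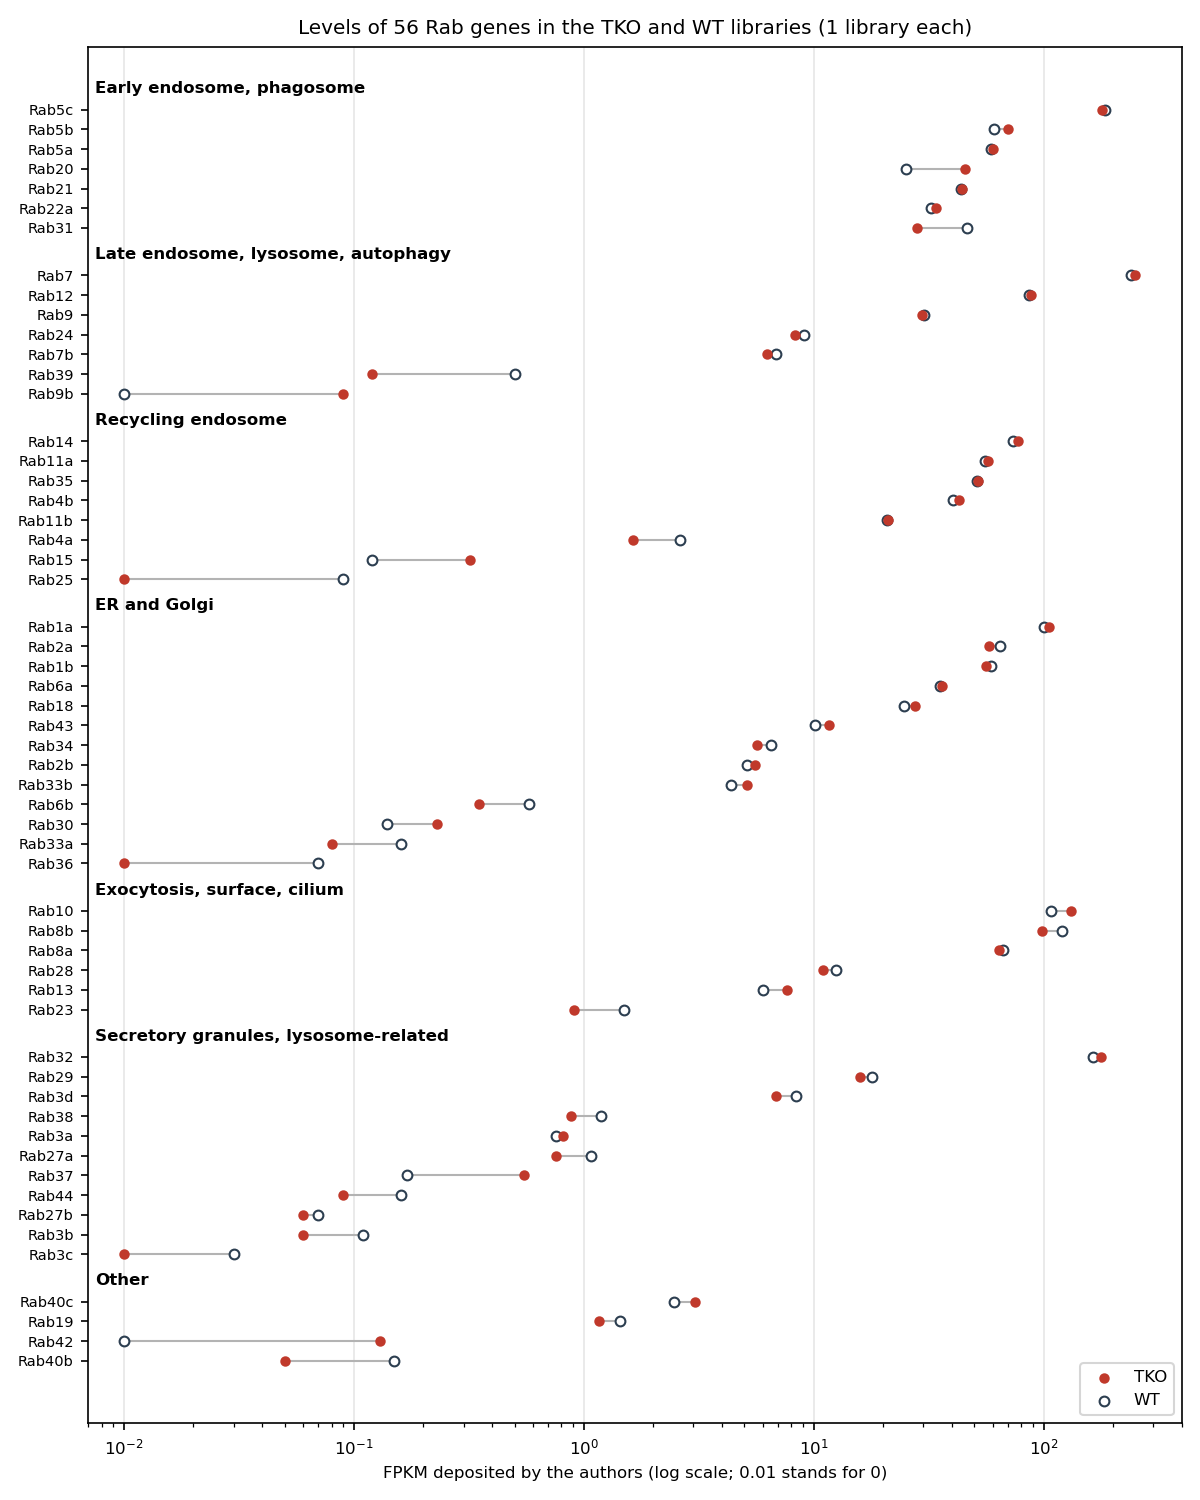
FPKM of each Rab gene in the TKO and the WT library on a log axis, by compartment, with 1 point per library. Rab7 was highest in both, at 250 in TKO and 240 in WT, and 5 members were at or above 100 in both libraries.

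Of the 56 members, 42 reached a mean of 1 CPM over both libraries. A gene was called when its log2 ratio of CPM, with 0.5 added to each, passed 1.5-fold and the counting interval excluded equality. Rab20 was called higher in TKO, 1 of 42 members or 2.38%, against 2.83% of all 11662 genes that passed the filter. Rab31 and Rab23 were called lower, 2 of 42 or 4.76%, against 5.26% of all genes. Both shares were near the background. The median log2 ratio was 0.01 over the Rab genes and -0.04 over all genes. At a mean of 10 CPM or more, the log2 ratios had an SD of 0.24 over 33 Rab genes and 0.37 over all genes. These Rab genes were more abundant, with a median of 113 CPM against 45.1 over all genes. Within 1.5-fold lay 93.9% of these Rab genes and 94.8% of all genes. At a mean of 10 CPM or more, 1 Rab gene was called higher and 1 lower, against 2.12% of all genes higher and 3.11% lower. A threshold of 25%, taken as the higher library over the lower, called the same 3 Rab genes, against 6.61% of all genes higher and 11.4% lower. No Rab gene was called at 2-fold in either direction, against 1.02% of all genes higher and 1.68% lower.

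**Figure D2:**
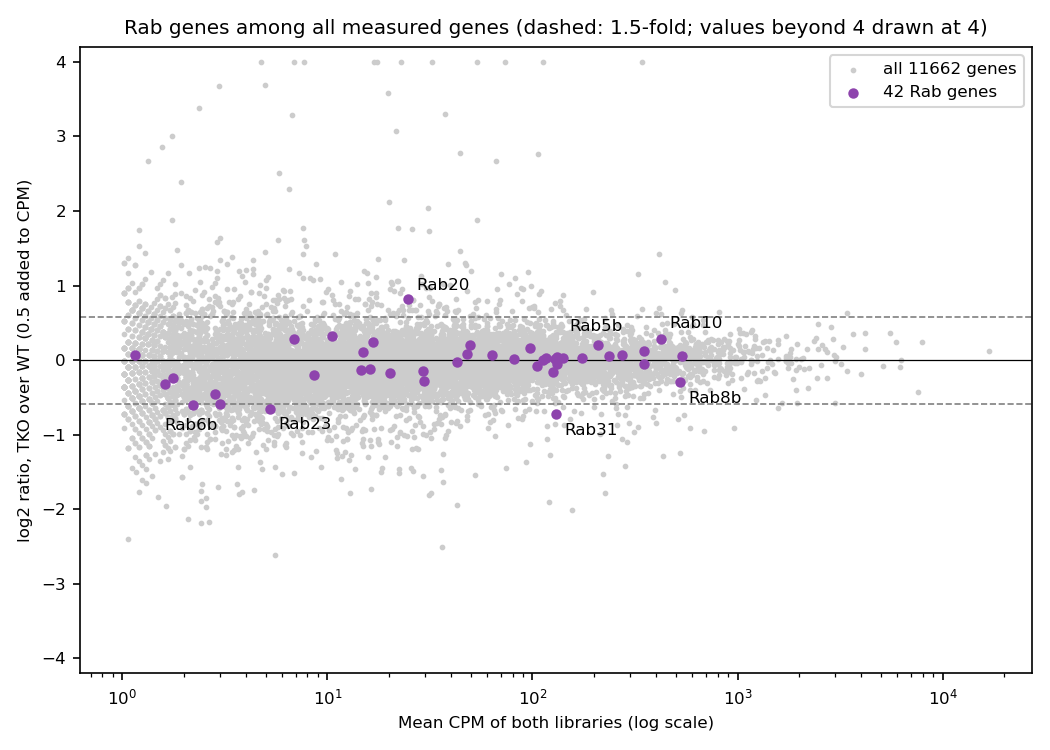
Log2 ratio of TKO over WT against mean CPM (log axis) for all 11662 genes (grey) and the 42 Rab genes (purple), with dashed lines at 1.5-fold. Most Rab genes sit near 0 across the range, with Rab20 above the upper line and Rab31 and Rab23 below the lower one.

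Among the compartments, the log2 ratios of members that passed the filter spanned the widest range in the Rabs of early endosomes and phagosomes. Rab20, which is found on endosomes and maturing phagosomes of macrophages, had 343 counts in TKO and 190 in WT, or an FPKM of 45.4 in TKO and 25.3 in WT. It was 1.79-fold higher in TKO (1.5 to 2.15), and its rank among Rab genes by FPKM was 16 in TKO and 22 in WT. The gene lies on the minus strand at chr8:11453518-11478710. E230013L22Rik, annotated on the other strand, covers 356 of its 1392 exon bases and had 111 counts in TKO and 84 in WT. The sources used here name no strand setting, so reads of that overlap cannot be assigned to one of the genes. In bulk RNA, fewer cells of a type and less RNA per cell cannot be told apart.

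Rab31, which acts between the trans-Golgi network and endosomes, went the other way. It had 1066 counts in TKO and 1756 in WT, or an FPKM of 28.1 in TKO and 46.7 in WT, 1.66-fold lower in TKO (1.54 to 1.79). It lies on the minus strand at chr17:65651729-65772752, and its FPKM rank was 22 in TKO and 16 in WT, the reverse of Rab20. Of the stromal markers, 11 of the 14 that passed the filter were called lower, as Rab31 was, and Pdgfrb, Thy1 and Pdgfra were not. Summed CPM of the 16 markers was 2.45-fold lower in TKO (2.34 to 2.57). Their part in the result was not tested. The closest relative of Rab31, the early endosomal Rab22a, had 704 counts in TKO and 665 in WT, 1.05-fold higher (0.944 to 1.17). Rab31 therefore made up 45.2% of the FPKM of this pair in TKO and 59.0% in WT. The ratio of Rab31 to Rab22a, which needs no scaling between libraries, was 0.573 times as large in TKO as in WT (0.502 to 0.655).

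The Rab5 genes, whose products drive fusion of early endosomes, differed little. Rab5c, the highest of the group, had an FPKM of 179 in TKO and 185 in WT, 1.04-fold lower with an interval that includes equality (0.991 to 1.09). Rab5a had an FPKM of 60.4 in TKO and 58.9 in WT. Rab5b, at 70.0 in TKO and 60.8 in WT, was 1.15-fold higher (1.09 to 1.22). The ratio of Rab5b to Rab5c was 1.19 times as large in TKO (1.11 to 1.29), so the mix of Rab5 transcripts differed by more than counting error. Rab21, a Rab of early endosomes and integrin traffic, had 883 counts in TKO and 870 in WT.

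**Figure D3:**
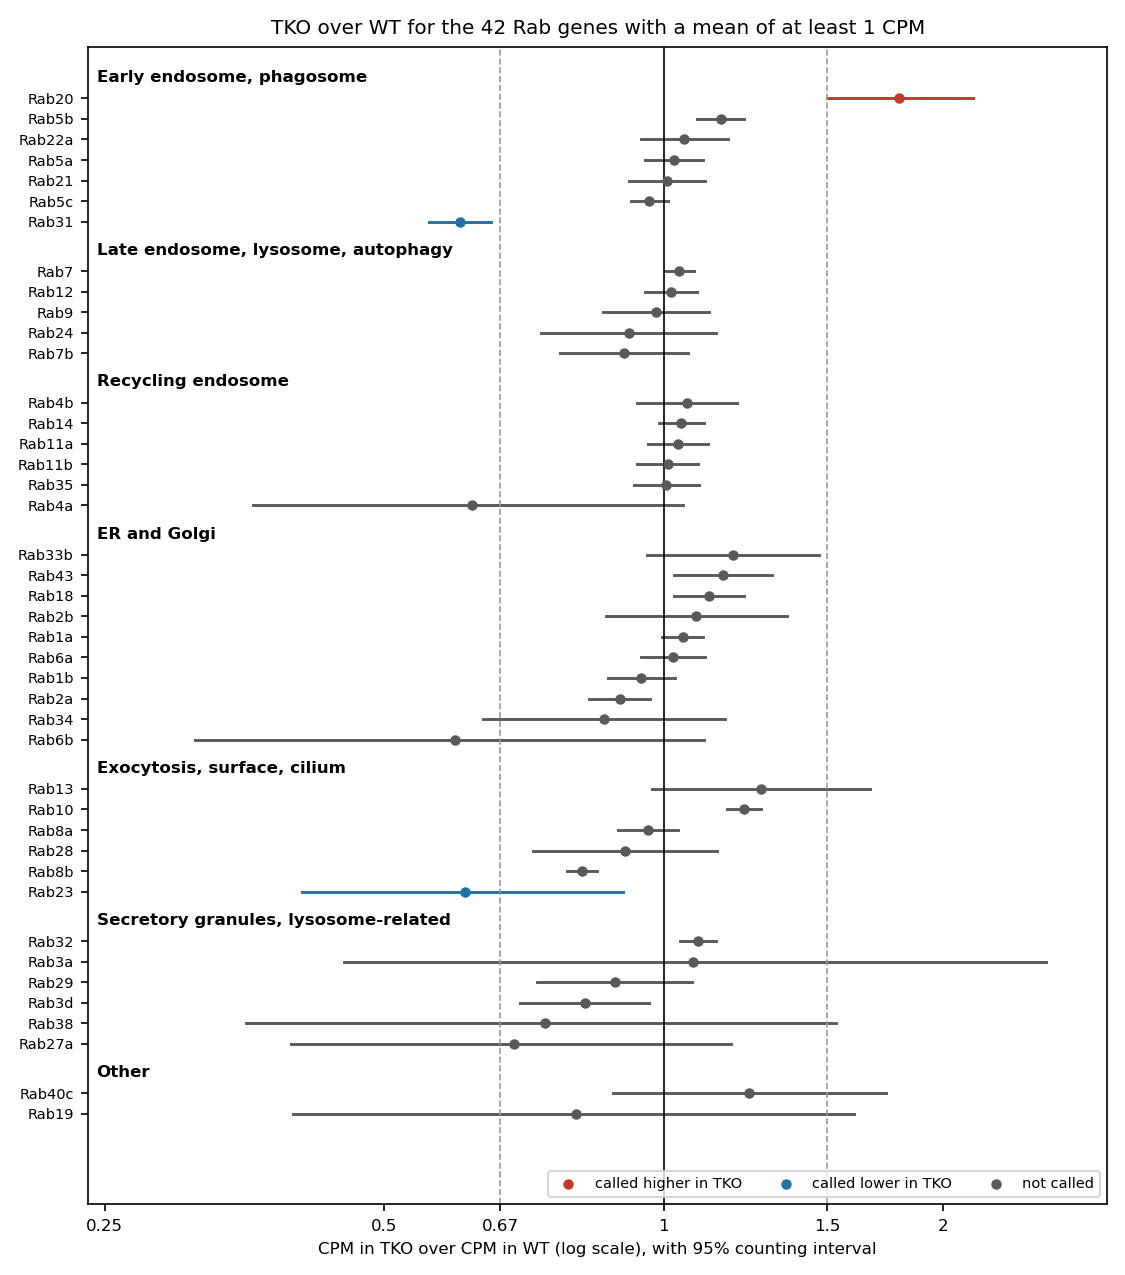
CPM in TKO over CPM in WT on a log axis for the 42 Rab genes that passed the filter, by compartment, with 95% counting intervals from 1 library per genotype. Rab20 lies above 1.5-fold, and Rab31 and Rab23 lie beyond it on the lower side with a much wider interval for Rab23.

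Rabs of late endosomes, lysosomes and autophagy that passed the filter were close in both genotypes. Rab39 of this group was under the filter and is described below. Rab7, which directs fusion with lysosomes and was the most abundant Rab gene, had 5890 counts in TKO and 5630 in WT, 1.04-fold higher (1.00 to 1.08). Rab7b, reported to send Toll-like receptors to lysosomes, had the log2 ratio farthest from 0 in this group among members that passed the filter, -0.14. It had 303 counts in TKO and 332 in WT, an FPKM of 6.24 in TKO and 6.87 in WT, and was 1.10-fold lower with an interval that includes equality (0.941 to 1.29). Rab12, Rab9 and Rab24 also had intervals that include equality. Prelid1, annotated on the other strand, covers 1258 of the 2015 exon bases of Rab24. It had 2459 counts in TKO and 2929 in WT, against 167 and 181 for Rab24. As for Rab20, reads of the overlap cannot be assigned to one of the genes.

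Of 6 recycling endosome Rabs that passed the filter, 0 were called, against 2.83% of all genes higher and 5.26% lower. Of these 6, 5 had log2 ratios between 0.01 and 0.08. Rab14, of the route between Golgi, endosomes and phagosomes, was the highest by FPKM, at 77.2 in TKO and 73.9 in WT. It had 2604 counts in TKO and 2478 in WT, 1.04-fold higher with an interval that includes equality. Rab11a, which returns receptors to the surface, had an FPKM of 57.3 in TKO and 55.4 in WT. The fast recycling Rab4 genes differ in abundance, with 536 counts of Rab4b in TKO and 503 in WT. Rab4a had 25 counts in TKO and 40 in WT, 1.61-fold lower, and was not called because its interval includes equality (0.954 to 2.77).

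Of 10 ER and Golgi Rabs that passed the filter, 0 were called, against 2.83% of all genes higher and 5.26% lower. Their median log2 ratio was 0.05. Rab1a, which acts in transport between ER and Golgi, was the highest by FPKM, at 105 in TKO and 101 in WT, with 3043 counts in TKO and 2885 in WT. It was 1.05-fold higher, and its interval includes equality (0.995 to 1.10). Rab2a, another Rab of this step, had 1286 counts in TKO and 1426 in WT and was 1.12-fold lower (1.03 to 1.2). Rab18, found on ER and lipid droplets, had 1109 counts in TKO and 986 in WT and was 1.12-fold higher (1.02 to 1.22). Rab43 had 577 counts in TKO and 495 in WT, 1.16-fold higher (1.03 to 1.31). These 3 differences exceeded counting error and stayed under 25%. Rab6b, a Golgi Rab known from neurons, had the log2 ratio farthest from 0 among these 10, -0.61, on 18 counts in TKO and 30 in WT, and its interval includes equality.

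Among Rabs of exocytosis, the cell surface and the cilium, Rab10 and Rab8b stood in opposite order in the libraries. Rab10, which in mouse macrophages is known for delivery of Toll-like receptor 4 to the surface, had an FPKM of 132 in TKO and 108 in WT. Rab8b, a Rab of transport to the plasma membrane, had an FPKM of 98.1 in TKO and 120 in WT. Rab10 was thus the higher of the pair in TKO, and Rab8b in WT. In counts, Rab10 had 5069 in TKO and 4128 in WT, 1.22-fold higher (1.17 to 1.27), and Rab8b 5096 in TKO and 6202 in WT, 1.23-fold lower (1.18 to 1.27). The ratio of Rab8b to Rab10 was 0.669 times as large in TKO as in WT (0.633 to 0.707). With Rab8a and Rab13, this subfamily summed to an FPKM of 302 in TKO and 301 in WT, so the sum of the related transcripts was nearly equal while their mix was not.

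Rab23, a regulator of Hedgehog signalling at the cilium, was called lower at a low level. It had 43 counts in TKO and 70 in WT, an FPKM of 0.91 in TKO and 1.49 in WT, and was 1.64-fold lower with a wide interval (1.11 to 2.45). It lies on the plus strand at chr1:33719887-33742564. Most of the stromal markers given above were lower in the same library, and their part in this result was not tested. Rab13, of tight junctions, had 128 counts in TKO and 100 in WT, 1.27-fold higher with an interval that includes equality (0.971 to 1.67).

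**Figure D4:**
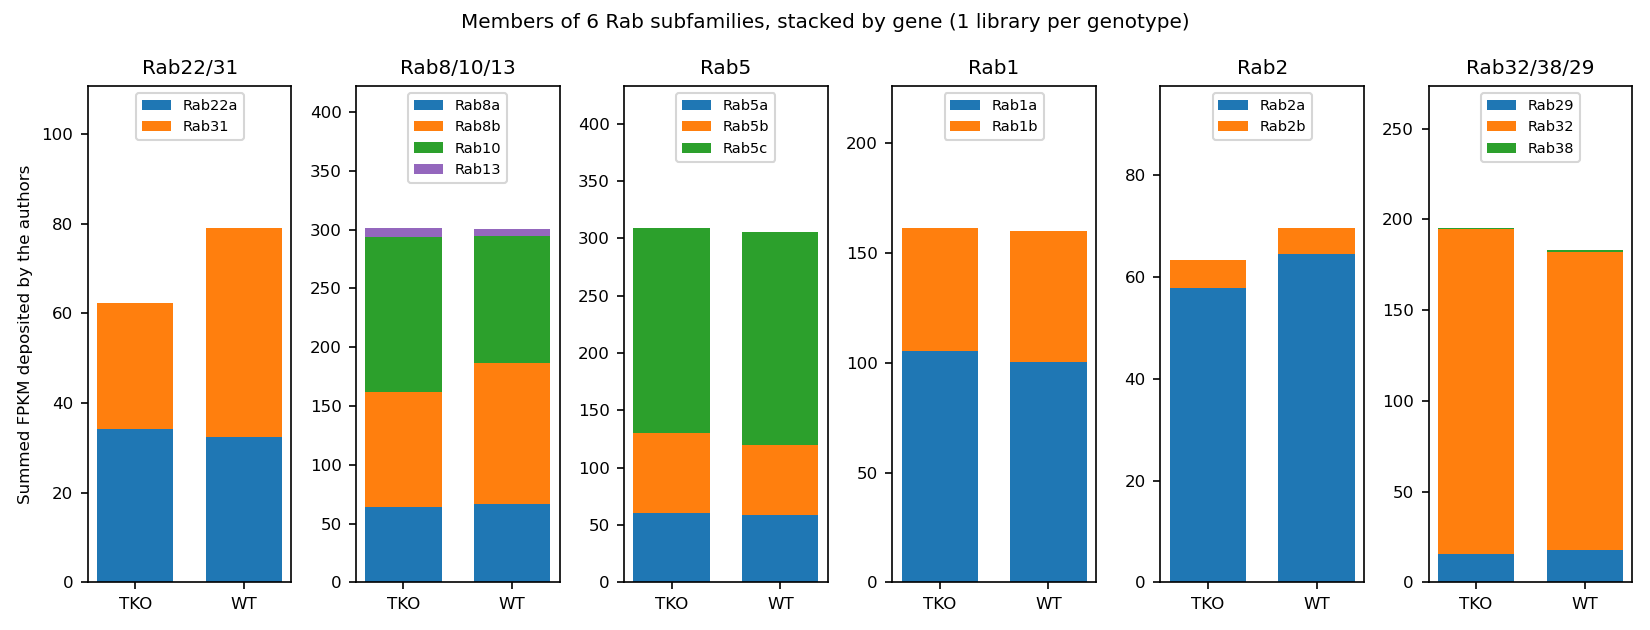
FPKM of the members of related Rab subfamilies in the TKO and the WT library, with 1 library per genotype. The parts differ most in Rab22/31, where Rab31 was 28.1 in TKO and 46.7 in WT, and in Rab8/10/13, where Rab10 and Rab8b exchange order.

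Rabs of secretory granules and lysosome-related organelles were dominated by Rab32, which acts on lysosome-related organelles and mitochondria. It had an FPKM of 179 in TKO and 164 in WT, and 3969 counts in TKO and 3624 in WT, 1.09-fold higher (1.04 to 1.14). Rab3d, a Rab of secretory granules, had 288 counts in TKO and 348 in WT and was 1.22-fold lower (1.04 to 1.43). Rab27a, which docks granules at the plasma membrane, had the log2 ratio farthest from 0 among the 6 that passed the filter, -0.45, on 25 counts in TKO and 36 in WT, and its interval includes equality (0.847 to 2.52). Of the Rabs placed in no compartment here, Rab40c, a ubiquitin ligase adaptor, had 82 counts in TKO and 66 in WT. It was 1.23-fold higher with an interval that includes equality (0.882 to 1.73).

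By the interval alone, without a fold threshold, 7 members were higher in TKO, namely Rab5b, Rab7, Rab10, Rab18, Rab20, Rab32 and Rab43, or 16.7% against 14.1% of all genes. Lower by the same rule were Rab2a, Rab3d, Rab8b, Rab23 and Rab31, or 11.9% against 20.2% of all genes. The size of these sets moves with scaling, since TMM factors add 0.048 to every log2 ratio and then bring Rab13, Rab14 and Rab1a into the higher set. Over all genes the interval alone marks 1649 as higher and 2351 as lower, and 2155 as higher and 1849 as lower with TMM factors. In the authors' deposited table, 8 of the 56 members had an adjusted value of at most 0.05, or 14.3% against 18.5% of all genes. That table gives an adjusted value of 1.04e-09 for Rab20, 5.24e-38 for Rab31 and 0.0533 for Rab23, from a comparison of the same pair of libraries.

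The 14 members under the filter had at most 13 counts in TKO and 16 in WT, and 51 counts in TKO and 54 in WT in all. They include the neuronal and secretory Rab3b and Rab3c, the epithelial Rab25, and Rab27b. Rab25 and Rab36 were listed at 0 in TKO, and Rab9b and Rab42 at 0 in WT, with at most 4 counts in the other library. A count of 0 allows up to 0.277 CPM in TKO and 0.279 CPM in WT. Rab39, an endosomal and autophagy Rab, had 4 counts in TKO and 16 in WT, 4.03-fold lower with a wide interval (1.30 to 16.6), and was singled out after its values were seen. Without the filter it would be called, which makes 3 of 56 members lower, against 4.37% of all genes. Rab37, a secretory granule Rab, had 13 counts in TKO and 4 in WT, and Rab15, a neuronal Rab of recycling endosomes, had 11 in TKO and 4 in WT. For these and the others under the filter, Rab39 aside, the interval includes equality, so a difference was not detectable at this depth.

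Matches to the deleted seeds were counted in the longest annotated 3' UTR of the 42 members. A miR-17 match was present in 9, or 21.4%, against 15.5% of 11150 genes. These were Rab5b, Rab8b, Rab10, Rab11b, Rab12, Rab18, Rab22a, Rab33b and Rab43. Of the 9, 8 had a log2 ratio above 0, with Rab8b the exception. Among those 8, the intervals of Rab11b, Rab12, Rab22a and Rab33b include equality. Of the 33 members without a match, 15 were above 0. Over all genes, 51.9% were above 0 with a match and 40.4% without. The median log2 ratio was 0.16 with a match and -0.05 without, and over all genes it was 0.01 with and -0.05 without. Median UTR length also differed, at 3737 bases in Rab genes with a match and 1300 without, and its part in the difference was not tested. For the other families, 3 of 6 Rab genes with a miR-18 match were above 0, as were 8 of 13 with a miR-19 match and 2 of 5 with a miR-92 match. Their medians were -0.02 for miR-18, 0.01 for miR-19 and -0.14 for miR-92. Over all genes with a match, 45.9% were above 0 for miR-18, 47.6% for miR-19 and 49.1% for miR-92. The medians of all genes with a match were -0.03 for miR-18, -0.01 for miR-19 and -0.01 for miR-92. Over any of the 4 families, 21 of 42 Rab genes had a match, or 50% against 36.0% of all genes. Their median was 0.01 against 0.03 for the rest, and over all genes it was -0.01 with a match and -0.06 without. Rab20 and Rab31, the Rab genes called on more than 100 counts per library, had no match to any of the 4 seeds in this window. Rab23 had 1 miR-19 match and 1 miR-92 match.

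The genes that act on Rab proteins were examined as 4 lists. Together 4 of the 137 members that passed the filter were called higher, or 2.92% against 2.83% of all genes, and 5 lower, or 3.65% against 5.26%. At this 1.5-fold threshold both shares of the pooled lists were near or under the background. Of 13 genes for prenylation and membrane recycling of Rab proteins, 0 were called, with a median log2 ratio of -0.09. Gdi2, the GDP dissociation inhibitor highest by FPKM, had 6018 counts in TKO and 6178 in WT, and its FPKM was 207 in TKO and 213 in WT.

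Of 36 exchange factors, 1 was called higher, or 2.78% against 2.83% of all genes, and 3 lower, or 8.33% against 5.26%. Their median log2 ratio was -0.02. Rin2, an exchange factor of Rab5, had 1704 counts in TKO and 2607 in WT, an FPKM of 33.4 in TKO and 51.4 in WT, and was 1.54-fold lower (1.45 to 1.64). Rin1, its relative, had 6 counts in TKO and 22 in WT, 3.69-fold lower (1.45 to 11.1). Rab3il1, an exchange factor for Rab8 and Rab3, had 166 counts in TKO and 259 in WT, 1.57-fold lower (1.29 to 1.92). Rin3, the other Rin gene of the list, had 2009 counts in TKO and 2088 in WT, and its interval includes equality. It was chosen after its values were seen. Dennd2d, of the DENN domain family, had 43 counts in TKO and 25 in WT, 1.71-fold higher (1.02 to 2.92). The highest by FPKM in TKO was Dennd5a, at 48.9 in TKO and 49.6 in WT, and Rin2 was higher in WT.

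Of 35 genes listed as GTPase-activating proteins that passed the filter, 1 was called higher, or 2.86% against 2.83% of all genes. Lower were 2, or 5.71% against 5.26%, and the median log2 ratio was -0.11. Tbc1d23, a trans-Golgi network protein with a TBC domain, had the log2 ratio farthest from 0 of these 35. It had 1212 counts in TKO and 558 in WT, an FPKM of 30.3 in TKO and 14.1 in WT, and was 2.16-fold higher (1.95 to 2.39). Whether its protein switches off any Rab was not tested. Usp6nl, which acts on Rab5, had 92 counts in TKO and 157 in WT, 1.72-fold lower (1.32 to 2.25). Evi5l, which acts on Rab23, had 40 counts in TKO and 67 in WT, 1.69-fold lower (1.12 to 2.56). The highest by FPKM in TKO was Tbc1d10b, at 43.3 in TKO and 43.0 in WT, and Tbc1d13 was higher in WT, at 37.4 in TKO and 44.2 in WT.

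Of 53 effectors that passed the filter, 2 were called higher, or 3.77% against 2.83% of all genes, and 0 lower, against 5.26%. Their median log2 ratio was 0.06, against -0.04 over all genes. Appl2, an endosomal effector of Rab5, had 249 counts in TKO and 146 in WT, 1.69-fold higher (1.38 to 2.09). Fyco1, which links Rab7 membranes to kinesin, had 453 counts in TKO and 283 in WT, 1.59-fold higher (1.37 to 1.85). The highest by FPKM was Rab11fip1, an effector of Rab11, at 75.7 in TKO and 73.0 in WT. By the interval alone, 13 of the 53 effectors were higher, or 24.5% against 14.1% of all genes, and 5 lower, or 9.43% against 20.2%. With TMM factors 16 were higher, or 30.2% against 18.5% of all genes, and 5 lower, or 9.43% against 15.9%.

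**Figure D5:**
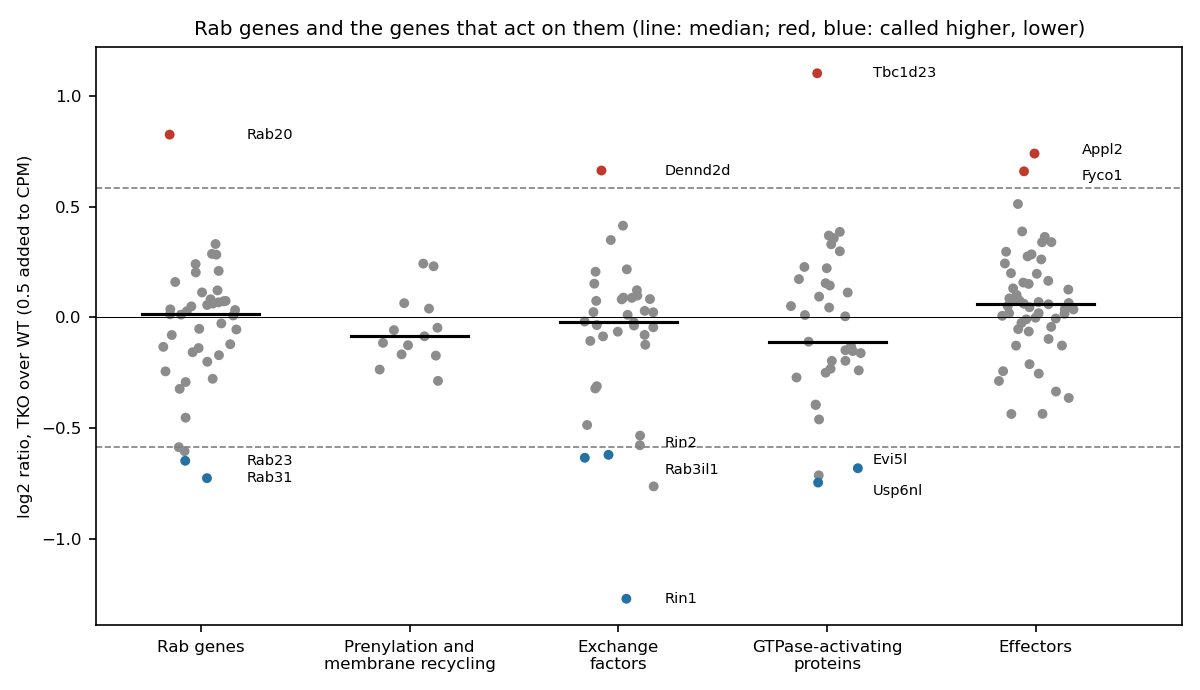
Log2 ratio of TKO over WT for the Rab genes and for 4 lists of genes that act on them, 1 point per gene that passed the filter, with the median as a line and dashed lines at 1.5-fold. Called genes are coloured and named, and medians of all 5 sets lie between -0.11 and 0.06.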

How the data were processed

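Polyadenylated RNA of 1 TKO and 1 WT macrophage culture was sequenced, per the labels' protocols. Per the submitters' processing notes, the tools were RSEM 1.2.12, Bowtie2 2.2.5 and HISAT2 2.0.4 on mm10, with no role stated for each. The sources used here name neither the annotation nor the strand setting. The authors deposited estimated counts per gene, which were rounded to whole numbers here. FPKM per gene was likewise deposited, with 0.01 written for 0. The deposited log2 ratio is that of the TKO over the WT FPKM. The authors' own comparison of the libraries gives a deposited p-value and an adjusted value that exceeds 1 (at most 1.04), so it is handled as a score. The deposited gene length column, in bases, was used only to describe the genes.

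Of 16219 entries, 1 had no gene symbol and was left out. It had 1 count in each library, or 9.23e-06% in TKO and 9.29e-06% in WT. Counts were scaled to CPM by each library's total. The filter kept genes whose mean over both libraries was 1 CPM or more. A call needs 1.5-fold on the log2(CPM + 0.5) scale and an exact 95% interval of the count ratio (Clopper-Pearson, conditional on both counts) that excludes equality. The floor for 0 counts was 3 counts. The calculation was tested on simulated counts. The named genes of each compartment were those called, the highest by FPKM in TKO and the one that passed the filter and lay farthest from a log2 ratio of 0; of the regulator and effector lists, those called and the highest by FPKM in TKO. Rab5b, Rab8b, Rab10 and the other members named through subfamilies or intervals were chosen after their values were seen. Members and lists were chosen with earlier results of these data known.

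All 56 members matched GENCODE M21 (GRCm38), of which 13 have exons under a gene on the other strand. Estimates of 10 members were fractional. Seed matches are the 7 bases opposite microRNA bases 2 to 8, searched on the transcript strand, with overlaps between families counted for each. Python 3.11.15, SciPy 1.17.1, edgeR 4.0.16 (TMM factors) and DESeq2 1.42.0 (size factors) were used.

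Further marker lists checked the labelled cell type. Their summed counts were 290 in TKO and 262 in WT for neutrophils, 111 in TKO and 144 in WT for T and NK cells, and 16 in TKO and 28 in WT for B cells. Dendritic cell markers summed to 2176 in TKO and 414 in WT, of which Itgax had 2019 in TKO and 291 in WT. The sums were 16 in TKO and 24 in WT for mast cells, and 319 in TKO and 307 in WT for megakaryocytes. They were 2 in TKO and 4 in WT for erythroid cells, and 658 in TKO and 387 in WT for endothelial cells. Of the endothelial sum, Kdr had 576 in TKO and 281 in WT. The other endothelial markers that passed the filter were Cdh5, with 32 in TKO and 50 in WT, and Pecam1, with 37 in TKO and 43 in WT. Both had intervals that include equality.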

Additional observations from a re-analysis of the deposited data

How the results depend on the processing

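Rab20 stayed called higher and Rab31 called lower under every scaling, pseudocount and filter tried, except a 2-fold threshold, which called 0 Rab genes higher and 0 lower. Their log2 ratios were 0.78 to 0.87 for Rab20 and -0.73 to -0.68 for Rab31. Rab23 was no longer called with 0.5 added to FPKM (-0.50), 2 added to CPM (-0.51) or a mean of at least 10 CPM. Each of these left 1 Rab gene called lower. Calls by FPKM used no interval. The deposited log2 ratio of FPKM for Rab23, with nothing added, was -0.71, which is beyond 1.5-fold. The log2 ratio of the summed Rab CPM, 0.0053, was 0.0533 with TMM factors, 0.0405 with DESeq2 size factors and 0.0256 with FPKM. Of the 137 genes of the regulator and effector lists, a 2-fold threshold called 1 higher and 1 lower, against 1.02% and 1.68% of all genes. A threshold of 25% (the higher library over the lower) called 14 of the 137 higher and 8 lower. Over all genes it called 6.61% higher and 11.4% lower, so the lists were above the background for higher and under it for lower. A mean of at least 10 CPM left 3 lower, against 3.11% of all genes at that level. Without a filter Rab39 was also called lower. No called value changed sign, but the median log2 ratio of the Rab genes, 0.01, was -0.01 without a filter, and the median of all genes, -0.04, was 0.00 with TMM factors. No paired analysis was possible because each genotype has 1 library, and leaving out a replicate was not possible for the same reason. Depth limits the members under about 100 counts, whose intervals are wide, and intervals leave out variation between animals and cultures.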
